A study of Rattus norvegicus with 6 samples.

Results

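Immediate early genes were followed in kidney RNA of congenic and Dahl salt-sensitive (S) rats: the AP-1 subunit genes Fos, Fosb, Jun, Junb and Jund, the partner gene Atf3, and Egr1, Nr4a1, Myc and Dusp1. The members were all probe sets whose platform gene symbol was one of these 10 names, which gave 16 of the 31099 probe sets on the array. Of the 10 genes, 9 had a probe set bright enough to be tested, of 10658 tested genes in all, and 11 of the 16 probe sets were tested. The congenic rats were males of a strain that carries a piece of chromosome 9 of the R (Dahl salt-resistant) rat on the S background, and the S rats were males of the parental strain. There were 6 rats of each strain, weaned at 30 days and killed at 53 days of age, which were housed as mixed pairs of both strains and fed a 2% salt diet after weaning. Kidney RNA of 2 rats was pooled for each array, so each strain has 3 arrays (Affymetrix Rat 230 2.0), and the spread between arrays is that between pools. Pooling hides the differences between the rats of a pool, and whole kidney mixes all its cell types, so fewer cells of a type and less RNA per cell cannot be told apart.

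Immediate early genes are transcribed within minutes of a stimulus, because the factors that start them are already in the cell and need only be phosphorylated. Mitogen-activated kinases act on ternary complex factors and, through further kinases, on CREB, and these factors bind the CArG boxes (with serum response factor) and the cyclic AMP response elements of these genes. The products are mostly short-lived transcription factors. A Fos protein pairs with a Jun protein to form AP-1, and Dusp1 closes the loop by dephosphorylating the kinases. In the kidney these genes respond to ischaemia, to changes in osmolality, to growth factors and to vasoactive hormones.

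The promoters of Egr1, Nr4a1 and Jund are shown because the first 2 had the widest swings between arrays and nearly the same order of arrays, whereas the profile of Jund lay farthest from both. The sequences are RefSeq promoters of the rat assembly GRCr8, 300 bases long from 250 bases before the start of the gene, in lower case. Capitals mark CArG boxes, the cyclic AMP response element (CRE, TGACGTCA), its core CGTCA and the Egr site GCGGGGGCG, each on either strand. The CRE holds a core on both strands, so those matches overlap.
Egr1: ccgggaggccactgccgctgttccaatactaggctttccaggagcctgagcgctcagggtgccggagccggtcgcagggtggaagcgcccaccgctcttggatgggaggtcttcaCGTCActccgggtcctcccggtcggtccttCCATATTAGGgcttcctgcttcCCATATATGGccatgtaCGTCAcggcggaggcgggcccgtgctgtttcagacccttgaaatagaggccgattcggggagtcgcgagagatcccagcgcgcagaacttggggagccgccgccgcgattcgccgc
Nr4a1: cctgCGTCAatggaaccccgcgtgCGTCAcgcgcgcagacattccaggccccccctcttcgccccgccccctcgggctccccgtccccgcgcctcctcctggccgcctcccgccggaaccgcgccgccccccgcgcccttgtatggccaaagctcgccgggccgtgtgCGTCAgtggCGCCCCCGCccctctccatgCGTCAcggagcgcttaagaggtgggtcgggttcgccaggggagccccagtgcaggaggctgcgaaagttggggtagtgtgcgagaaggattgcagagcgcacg
Jund: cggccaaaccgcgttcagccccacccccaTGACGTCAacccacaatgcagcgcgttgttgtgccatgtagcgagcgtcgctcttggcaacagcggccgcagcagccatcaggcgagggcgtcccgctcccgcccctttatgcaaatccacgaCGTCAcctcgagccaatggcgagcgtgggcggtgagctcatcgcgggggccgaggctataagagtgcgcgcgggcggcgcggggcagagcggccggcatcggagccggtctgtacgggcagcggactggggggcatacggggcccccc
The Egr1 promoter lies at chr18:26736828-26737127 on the plus strand, that of Nr4a1 at chr7:134259888-134260187 on the plus strand and that of Jund at chr16:18769722-18770021 on the minus strand. The Egr1 stretch held 2 CArG boxes, which occurred in 1.64% of 27457 rat promoters of this length, and 2 CRE cores. The Nr4a1 stretch held 4 CRE cores and 1 Egr site. The Egr site occurred in 2.78% of all promoters and at least 1 CRE core in 22% of them. The Jund stretch held 1 full CRE, found in 1.91% of promoters, and a separate CRE core. Promoter sequences were matched for 6 members, and of these Dusp1 also held a full CRE, and 5 of the 6 held a CRE core. The AP-1 site (TGACTCA or TGAGTCA) and the heat shock element GAANNTTC, at 4.53% and 8.34% of all promoters, were in 0 of the 6. A match describes the letters of this window and not binding. No promoter was matched for Fos, Jun, Atf3 or Myc.

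The values were MAS5 signals on a linear scale, and the arrays resembled each other in rank (Spearman correlation across tested probe sets 0.973 to 0.987). Of the kidney tubule markers, Slc34a1 and Umod were bright on all arrays. Slc5a2 of the proximal tubule (87.1 to 191) and Slc12a3 of the distal tubule (302 to 426) were dimmer. Slc34a1, the phosphate transporter of the proximal tubule, ran from 5312 to 5568 on congenic arrays and from 5316 to 5960 on S arrays, and Umod, the uromodulin gene of the thick ascending limb, from 6589 to 7010 on congenic arrays and from 6576 to 6774 on S arrays. The collecting duct markers Aqp2, Aqp3 and Scnn1g had a summed signal of 4459.9 to 5238 on congenic arrays, against 3735 to 4214 on S arrays. The sums did not overlap and lay in the direction of the immediate early genes. Singly, Aqp2 and Aqp3 did not overlap either, whereas Scnn1g did (213.6 to 256.1 on congenic and 177.0 to 234.2 on S arrays). Over all tested genes, the 3 congenic arrays lay above all 3 S arrays for 5.63% and below them for 7.07%. The part of these markers in the results was not tested. Congenic replicate 1 also carried liver transcripts, with a summed signal of 8821 for Alb, Serpina1, Cps1 and Ttr, against 70.1 to 126 on the other 5 arrays. Congenic replicate 3 carried adrenal transcripts, with 5356 for Cyp11a1, Hsd3b1, Star and Cyp21a1, against 128 to 141 on the others. The ratio of the 3' to the 5' signal of actin, which is higher where RNA is less intact, was 6.15, 6.64 and 7.17 on the congenic arrays and 9.42, 8.13 and 6.54 on the S arrays, highest on S replicate 1. The part of these 3 arrays in the results was not tested beyond leaving them out and fitting the actin ratio as a covariate.

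All 9 tested immediate early genes had higher mean signals in congenic kidneys, by a log2 fold change of 0.19 to 0.58 (congenic over S, on the log2(signal + 16) scale), and none passed limma's test adjusted over all probe sets. Their median was 0.27, where the median of all tested genes was -0.0068 and 47.4% of genes had a positive value. Over all 18625 tested probe sets limma called 0 (0% of those tested) at an adjusted p under 0.05, with 1232 at an unadjusted p under 0.05. Of the 9 genes, 5 had an unadjusted p under 0.05 with the higher signal in congenic kidneys (Fos, Jun, Jund, Atf3 and Myc), a state that 2.96% of all tested genes shared, and 0 in the other direction. The 9 genes were chosen with earlier results of these data known, and they vary together in part, so these counts are not independent observations.

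**Figure D1:**
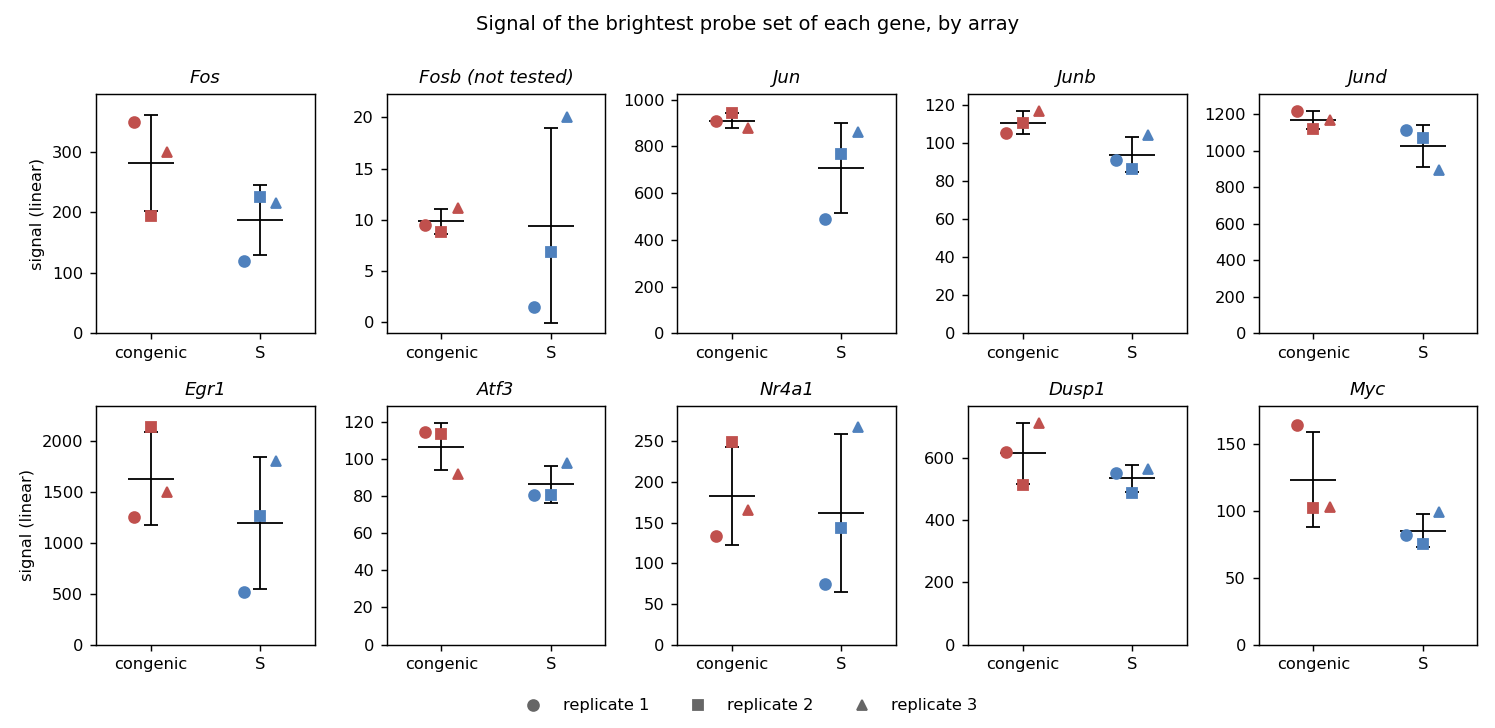
Signal (linear scale, each panel with its own axis) of the brightest probe set of each of the 10 genes on the 3 congenic arrays (red, left) and the 3 S arrays (blue, right), with the group mean and SD as lines. For Jun, Junb, Jund and Myc every congenic array lies above every S array, whereas Fos, Egr1 and Nr4a1 overlap and S replicate 1 (circle) lies lowest of the 6 arrays.

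Fos, the best known AP-1 subunit, had signals of 350, 194 and 299.8 on congenic replicates 1 to 3, against 120.2, 225 and 216 on S replicates 1 to 3. Congenic replicate 2 lay below S replicates 2 and 3, so the groups overlapped, and S replicate 1 was the lowest array. The means were 281 ± 79.7 in congenic and 187 ± 58.0 in S pools (SD, n = 3 each), with a log2 fold change of 0.56 (SE 0.24, adjusted p = 0.750 by limma). A second Fos probe set was dim, at 2.21 to 11.8 on congenic and 2.80 to 15.2 on S arrays, and was not tested.

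Fosb, whose protein can replace Fos in AP-1, was dim, with signals of 9.52, 8.80 and 11.1 on the congenic arrays, against 1.48, 6.80 and 20.0 on the S arrays. Its mean over the 6 arrays, 9.63, lay under the filter at a signal of 25.6, so it had no test. S replicate 1 was the lowest array and S replicate 3 the highest.

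Jun, the main partner of Fos, had signals of 909, 942 and 879 on congenic arrays, against 489, 767 and 860.0 on S arrays, in its brightest probe set. The groups did not overlap, although congenic replicate 3 lay close above S replicate 3. The means were 909.8 ± 31.7 in congenic and 706 ± 193 in S pools, with a log2 fold change of 0.40 (SE 0.16, adjusted p = 0.750 by limma, n = 3 each). The other 2 Jun probe sets showed the same separation, with log2 fold changes of 0.34 (SE 0.088, limma adjusted p = 0.710) and 0.38 (SE 0.13, limma adjusted p = 0.735). In all 3 probe sets S replicate 1 was lowest, S replicate 2 next and S replicate 3 the highest of the S arrays, but probe sets of 1 gene read the same RNA and are not replicates.

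Junb and Jund, the other Jun subunits, differed by less but were also separated. Junb, often described as a weaker activator than Jun, had 105, 110.1 and 117 on congenic arrays, against 90.9, 86.0 and 104.1 on S arrays, and the log2 fold change was 0.21 ± 0.098 (SE), with a limma adjusted p of 0.772. Jund, which unlike most members is expressed steadily in resting cells, had 1218, 1120.1 and 1166 on congenic arrays, against 1116, 1069 and 894 on S arrays. Its log2 fold change was 0.19 (SE 0.081, limma adjusted p = 0.750), and 0.095 without S replicate 3, its lowest array. S replicate 1 was the highest S array for Jund, the reverse of its place for Fos and Jun. The bright Jund probe set is listed without an accession in the platform annotation. The other 2 probe sets with that symbol, including the one listed with the RefSeq transcript, were at 1.10 to 2.80 on congenic and 1.08 to 8.36 on S arrays. The Jund values thus rest on 1 probe set, whose assignment to Jund could not be checked here.

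Atf3, a stress-induced factor that pairs with Jun proteins, had 114.7, 113.7 and 92.2 on congenic arrays, against 80.8, 80.5 and 98.1 on S arrays. Congenic replicate 3 lay below S replicate 3, so the groups overlapped. The log2 fold change was 0.26 (SE 0.11, limma adjusted p = 0.750).

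Egr1, a zinc finger factor induced through CArG boxes, had the widest spread within a strain of the 9 genes on the log2(signal + 16) scale. Its signals were 1252, 2139.6 and 1502 on congenic arrays, against 517, 1262 and 1809 on S arrays. The means were 1631 ± 458 in congenic and 1196 ± 648 in S pools (SD, n = 3 each), and the log2 fold change was 0.58 ± 0.36 (SE), with a limma adjusted p of 0.793. S replicate 3 lay above congenic replicates 1 and 3, and the array extremes differed 4.14-fold.

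Nr4a1, an orphan nuclear receptor induced by many of the same stimuli, had 133, 249 and 165 on congenic arrays, against 74.7, 143 and 267 on S arrays. Its log2 fold change was 0.27 (SE 0.34, limma adjusted p = 0.892), and the highest and the lowest array were both S. From low to high the arrays came in the same order as for Egr1 (S replicate 1, congenic replicate 1, S replicate 2, congenic replicate 3), except that S replicate 3 and congenic replicate 2 changed places at the top. The centred log2 profiles of Egr1 and Nr4a1 differed by a root mean square of 0.21 over the 6 arrays, although each deviated by up to 1.30 and 0.95 from its own mean. Fos and Egr1, by the same measure, differed by 0.55, since Fos was high on congenic replicates 1 and 3 and Egr1 on congenic replicate 2 and S replicate 3. The members thus did not all follow the same order of arrays.

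Myc, a growth regulator whose gene is induced early after mitogens, had 164, 103 and 103.3 on congenic arrays, against 81.8, 75.2 and 99.3 on S arrays. The groups did not overlap, but congenic replicates 2 and 3 lay close above S replicate 3, and congenic replicate 1, the array with liver transcripts, stood above all others. The means were 123 ± 35.5 in congenic and 85.4 ± 12.5 in S pools (SD, n = 3 each), and the log2 fold change was 0.44 ± 0.16 (SE), with a limma adjusted p of 0.750. Without congenic replicate 1 the log2 fold change was 0.24.

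Dusp1, the phosphatase that ends kinase signalling and also a glucocorticoid-induced gene, had 619, 515 and 713 on congenic arrays, against 552, 486 and 565 on S arrays. Congenic replicate 2 lay below S replicates 1 and 3, and congenic replicate 3, the array with adrenal transcripts, was highest. The part of the adrenal tissue in the Dusp1 value was not tested. The log2 fold change was 0.19 (SE 0.11, limma adjusted p = 0.785), and it ran from 0.079 without congenic replicate 3 to 0.31 without congenic replicate 2. A dim second probe set, at 17.7 to 25.7 on congenic and 12.9 to 26.3 on S arrays, was not tested.

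**Figure D2:**
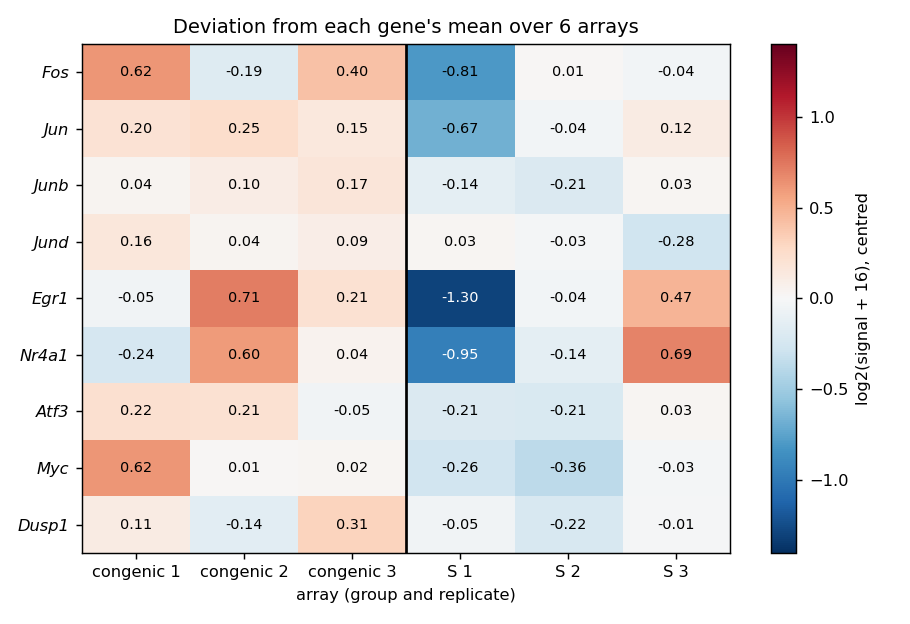
Centred log2(signal + 16) of the 9 tested genes on each array, congenic arrays left of the line and S arrays right of it, in units of log2 from the gene's own mean over 6 arrays. Egr1 and Nr4a1 share a pattern that is lowest on S replicate 1 (-1.30 and -0.95), Fos is highest on congenic replicates 1 and 3, and Jund is lowest on S replicate 3.

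The members differed in how much they varied within a strain. The pooled within-strain SD of Egr1 was 0.70 on the log2 scale, larger than that of 99.4% of tested genes, and those of Nr4a1 (0.65), Fos (0.44), Jun (0.30) and Myc (0.27) were larger than those of 99.4%, 98.9%, 96.6% and 95.3%. Junb (0.098), Jund (0.13), Atf3 (0.15) and Dusp1 (0.18) were nearer the middle, above 41.9%, 59.5%, 69.8% and 81.2% of genes. Egr1 and Fos, whose log2 fold changes exceeded 0.5 on the same scale, also had 2 of the 3 largest spreads. As ratios of the mean signals, congenic over S, Fos was the highest of the 9, followed by Myc at 1.44 and Egr1 at 1.36.

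In 4 of the 9 genes, Jun, Junb, Jund and Myc, all 3 congenic arrays lay above all 3 S arrays, a state that 5.63% of all tested genes shared, and 0 of the 9 showed the reverse, shared by 7.07%. S replicate 1 was the lowest of the 6 arrays for Fos, Jun, Egr1 and Nr4a1, 4 of the 9, where 20.7% of all tested genes had their lowest signal on that array. S replicate 2 was lowest for another 4 (12.7% of all tested genes), and no congenic array was lowest for any of the 9. Over all tested genes, congenic replicates 1, 2 and 3 were lowest for 20.4%, 15% and 15.8%.

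Without S replicate 1 the median log2 fold change of the 9 genes was 0.21, and 8 of the 9 kept a positive value, where 47.4% of all tested genes did so. The fold changes of the 4 genes that were lowest on that array came down to 0.29 for Fos, 0.16 for Jun, 0.073 for Egr1 and -0.14 for Nr4a1, which changed sign. Leaving out a gene's lowest S array can only lower its fold change, so the direction of these shifts was fixed in advance. The fold changes of Myc (0.41), Jund (0.25), Atf3 (0.22), Dusp1 (0.21) and Junb (0.19) moved by less than 0.1. Of the 9 genes, 2 (Jun and Jund) then had an unadjusted p under 0.05 with the higher signal in congenic kidneys, shared by 2.41% of all tested genes, and 0 the lower signal, shared by 2.85%, while limma called 0 of the 18625 probe sets (0%) after adjustment. For Jun, Junb, Jund and Myc the 3 congenic arrays lay above all S arrays, so they necessarily lay above both remaining ones. No other member joined them, and 9.95% of all tested genes shared that state without S replicate 1. The smallest adjusted p among the members' brightest probe sets was then 0.921, for Jund, so the difference between the strains was not shown for any single member with or without that array. That array had the actin ratio of 9.42, and with the log2 of this ratio as a covariate in the fit of all 6 arrays the median was 0.16. Egr1 was then at -0.090, Nr4a1 at -0.36, Jun at 0.073, Fos at 0.23, Myc at 0.22 and Atf3 at 0.11, whereas Jund was higher, at 0.31, and limma's adjusted p was 0.981 or more for all 9.

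**Figure D3:**
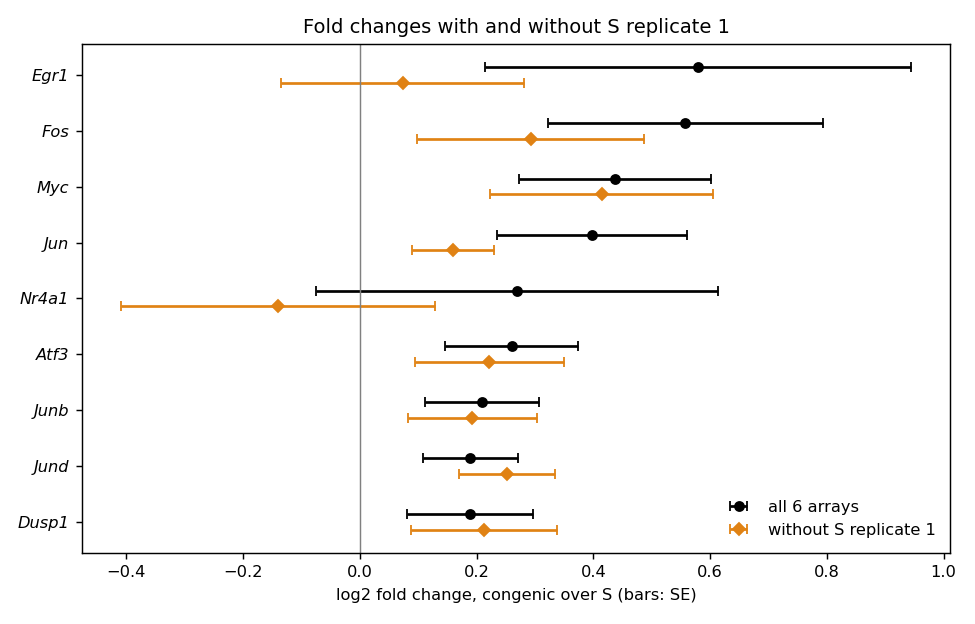
Log2 fold change (congenic over S, horizontal axis, bars are the SE) of the 9 tested genes with all 6 arrays (black circles) and without S replicate 1 (orange diamonds). Without that array, their lowest, the values of Egr1, Fos, Jun and Nr4a1 can only fall, and they shift towards or past 0. Those of Myc, Atf3, Junb, Jund and Dusp1 then lie between 0.19 and 0.41.

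Of 39 other immediate early genes, 32 were tested. Among the 32, 26 were positive (median log2 fold change 0.11), limma called 0 after adjustment, and 1 was higher and 1 lower in congenic kidneys at an unadjusted p under 0.05 (2.96% and 3.67% of all tested genes). Rhob, a small GTPase gene, had 1279, 1157 and 1045 on congenic arrays, against 880.1, 998 and 1080.1 on S arrays, and the log2 fold change was 0.23 ± 0.090 (SE), with a limma adjusted p of 0.750. Areg, which encodes the growth factor amphiregulin, was dim and lay the other way, with 28.3, 20.8 and 20.7 on congenic arrays, against 37.0, 39.2 and 28.3 on S arrays (log2 fold change -0.37, SE 0.15, limma adjusted p = 0.750). S replicate 1 was the lowest array for 15 of the 32 genes (20.7% of all tested genes). Without it their median was 0.054, with 21 of 32 positive, where 47.4% of all tested genes were positive with and without that array.

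Of 28 kinases and factors upstream of these genes, 18 were tested, 11 with a positive and 7 with a negative log2 fold change. Over all tested genes 47.4% were positive. The median of the 18 was 0.025, or 0.029 without S replicate 1. By limma 0 were called after adjustment, and 1 was higher in congenic kidneys at an unadjusted p under 0.05 (2.96% of all tested genes) and 0 lower (3.67%). Crebbp, the coactivator of CREB, had 387, 355 and 378 on congenic arrays, against 320, 323 and 340.0 on S arrays, and the log2 fold change was 0.18 ± 0.068 (SE), with a limma adjusted p of 0.750. Atf2, a bZIP factor phosphorylated by stress kinases, had a log2 fold change of 0.39 (SE 0.22, adjusted p = 0.785 by limma), and 0.13 without S replicate 1, the array on which its signal was 12.0. Transcript levels do not show the phosphorylation by which these proteins act.

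Of 22 known target genes of AP-1, Egr1 and Myc, 19 were tested, with 12 positive (47.4% of all tested genes) and a median of 0.053. By limma 0 were called after adjustment, and 2 were higher in congenic kidneys at an unadjusted p under 0.05 (2.96% of all tested genes). S replicate 1 was the lowest array for 9 of the 19 (20.7% of all tested genes), and without it 10 were positive, with a median of 0.024. Nab2, an Egr1-induced corepressor of Egr1, had 138, 131 and 113 on congenic arrays, against 92.0, 96.8 and 93.5 on S arrays. The groups did not overlap, and the log2 fold change of Nab2 was 0.38 (SE 0.097, limma adjusted p = 0.710), and 0.36 without S replicate 1. Plau, the urokinase gene, had a log2 fold change of 0.098 (SE 0.042, adjusted p = 0.750 by limma).

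Heat shock chaperones, which are induced by protein stress through another factor, are set beside the immediate early genes because they too were low on S replicate 1. Of 10, 7 were tested, with a median log2 fold change of 0.41, and S replicate 1 was the lowest array for 5 of them (20.7% of all tested genes). All 7 had their congenic arrays above the S arrays (5.63% of all tested genes). By limma 0 passed after adjustment and 6 were higher in congenic kidneys at an unadjusted p under 0.05 (2.96% of all tested genes). Without S replicate 1 their median was 0.32, with 7 of 7 positive (47.4% of all tested genes). Hspa1a, the inducible Hsp70 gene, had a log2 fold change of 0.67 (SE 0.10, adjusted p = 0.223 by limma), and 0.59 without S replicate 1, and Dnajb1, its co-chaperone, had 0.49 (SE 0.097, limma adjusted p = 0.463). The list was chosen with these values known.

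**Figure D4:**
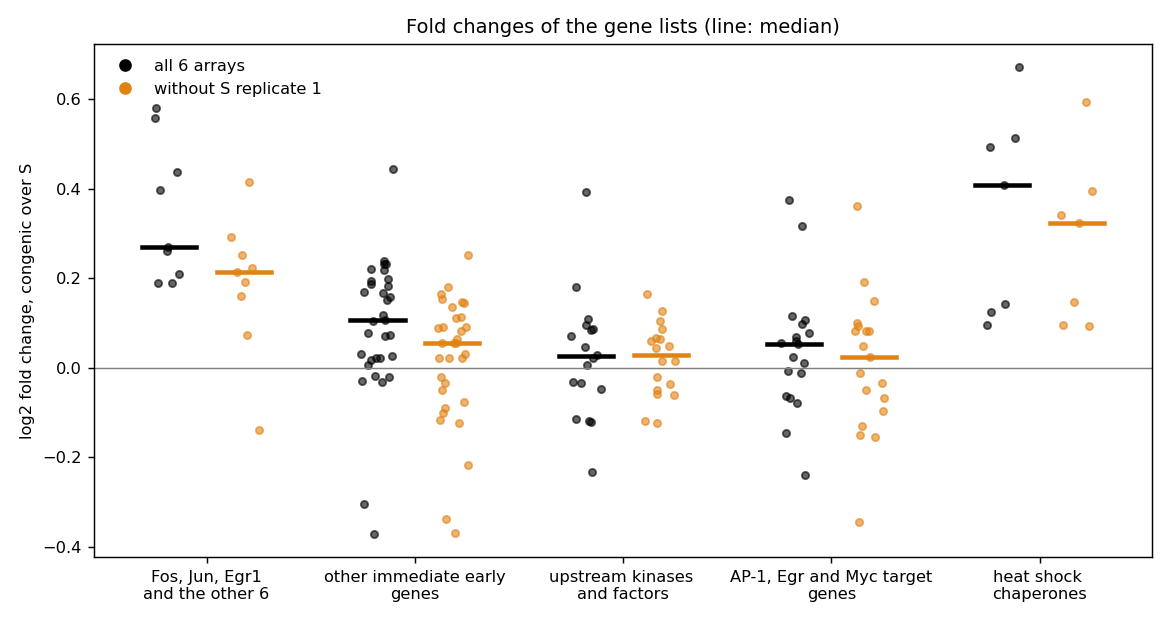
Log2 fold changes (congenic over S, vertical axis) of each tested gene of the 5 lists, with all 6 arrays (black) and without S replicate 1 (orange), and the list median as a line. The 9 immediate early genes have medians of 0.27 and 0.21, the 32 other immediate early genes 0.11 and 0.054, and the upstream and target genes lie around 0.

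The genes whose profile over the 6 arrays came nearest to that of Fos, outside the lists, were Ncoa3, Cngb1, Saa3, Nfil3 and Ankrd12, with root mean square differences of 0.18, 0.22, 0.23, 0.24 and 0.25 on the log2 scale. Ncoa3 had 71.9, 57.9 and 84.4 on congenic arrays, against 29.8, 53.6 and 59.3 on S arrays, low on S replicate 1 as Fos was. Closest to the mean profile of the 9 members were Pmf1, Pdia4 and Tgif2 (0.055, 0.056 and 0.067). Pdia4, a disulfide isomerase of the endoplasmic reticulum, had 565, 533 and 525 on congenic arrays, against 342, 395 and 495 on S arrays. These genes are the nearest of all tested genes outside the lists on 6 arrays, and such a likeness is a description.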

How the data were processed

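Per the submitters' processing notes, the authors made the deposited intensities with MAS5, and the file holds 1 linear signal for every probe set and array. The MAS5 version and scaling target are not given in the sources used here. Arrays were assigned to strains from their labels. Of 31099 probe sets, 20832 had 1 gene symbol in the platform annotation and 436 had several, which were not named. Symbols were updated by gene ID through RefSeq (GRCr8). The 57 control probe sets and 12417 probe sets below the 40th percentile of mean signal (25.6) were left out. The remaining 18625 entered a limma fit (version 3.58.1, R 4.3.3; lmFit, eBayes with an intensity trend) on log2(signal + 16), 2-sided, with Benjamini-Hochberg adjustment at 0.05. The pseudocount understates fold changes of dim probe sets. With 3 arrays a strain an exact permutation test cannot reach 0.05, so none was run. The fit was tested on simulated data with log2 changes larger than those of the members. That test does not show how well changes of the members' size are detected. A gene was represented by its brightest probe set.

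All probe sets of the 10 members are reported, and of each other list the 2 genes with the smallest p were named. The members and lists were chosen with earlier results of these data known. The number of arrays limits the precision. Alternatives were other pseudocounts, filters and scalings, eBayes without trend, a replicate block, the actin ratio as a covariate, the mean of a gene's probe sets, and arrays left out. When arrays were left out, the tested probe sets stayed the same.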

Additional observations from a re-analysis of the deposited data

How the results depend on the processing

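No member passed limma's adjusted threshold under any of the 18 alternatives, which were planned with earlier results known. Of 162 values of single members, 156 kept their direction. The filters, eBayes without trend and the balanced replicate block leave a fold change as it was. The mean of a gene's probe sets does so too for every member but Jun. Part of the 156 was thus fixed in advance. The median log2 fold change of the 9 genes was 0.19 with a pseudocount of 64 and 0.31 with a pseudocount of 1, and 0.21 to 0.53 with each array left out, highest without S replicate 3. With the actin ratio as a covariate the median was 0.16, and Egr1 and Nr4a1 were at -0.090 and -0.36. That ratio was higher on 2 of the 3 S arrays than on any congenic array, so the ratio and the strain share much of their variation. Nr4a1 ran from -0.14 without S replicate 1 to 0.68 without S replicate 3. Against congenic replicate 2 alone, with the arrays carrying liver and adrenal transcripts left out, the median was 0.23. Dusp1 was then at -0.050, Egr1 at 1.00 and Nr4a1 at 0.73. With S replicate 1 left out as well the median was 0.21, with Dusp1 at -0.025, Fos at -0.17, Egr1 at 0.50 and Nr4a1 at 0.32. The lone congenic array is then assumed to vary like the S arrays, and with 3 arrays the spread rests on 1 residual degree of freedom. Over all probe sets limma called 0 to 1 with an array left out, the 1 without congenic replicate 2, and 29 in the comparison of 3 arrays. The cause of these changes was not tested. The labels do not say whether the replicate numbers pair the pools. Across tested probe sets the correlation of deviations between pools of the same number was low (0.037, 0.014 and 0.021), which does not settle it. With a replicate block the SE fell from 0.36 to 0.22 for Egr1, from 0.34 to 0.23 for Nr4a1 and from 0.11 to 0.072 for Dusp1. For Atf3 it rose from 0.11 to 0.13. With the replicate block limma called 0 probe sets. Its smallest adjusted p was 0.640 among the members' brightest probe sets and 0.370 over all their probe sets, for a further Jun probe set. The median was 0.27, which a balanced block cannot change.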

Other observations

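Of the other Nr4a and Egr genes, named here after their values were seen, Nr4a2, Nr4a3, Egr2 and the dim Egr4 had their lowest signal on S replicate 1, whereas the dim Egr3 had its highest there. Nr4a3 had signals of 58.2, 80.4 and 62.8 on congenic arrays, against 12.9, 32.7 and 143 on S arrays, so that the lowest and the highest array were S replicates 1 and 3, as for Nr4a1. Egr2 had 72.9, 102.1 and 69.3 on congenic arrays, against 47.5, 69.2 and 96.3 on S arrays. Nr4a2 had 70.7, 75.0 and 58.7 on congenic arrays, against 50.2, 67.7 and 83.7 on S arrays. Gadd45g, a growth arrest gene, followed another order, with 219, 215 and 651 on congenic arrays, against 428, 327 and 238 on S arrays. Its highest array, congenic replicate 3, was the one with adrenal transcripts, whose part in this value was not tested.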
